A study of Homo sapiens with 12 samples.

Results

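The genes described here are 10 members of the Notch pathway in K562 cells: the ligand JAG1, the receptors NOTCH1 and NOTCH2, and the nuclear effectors HES1, HES4, HES5, HES6, HEY1, HEY2 and HEYL. They were taken by name from the 27348 genes of the deposited expression table, of which 23366 could be placed on the genome, all 10 among them. The 10 genes were chosen by their place in the pathway with the peak lists already known, so the position, width and score of their peaks are given as a description, with no test. K562 is a human erythroleukemia line derived from chronic myeloid leukemia. The cells were infected with an empty shRNA vector (shCT) or with vectors carrying 1 of 2 shRNAs, sh1 and sh2, against the long isoform of PHF19, and all were selected with puromycin. RNA-seq was done in 6 libraries, 2 for each of the 3 groups, and ChIP-seq with a fly chromatin spike-in in 6 libraries. Of these, 3 peak lists were analysed, with PHF19 in shCT cells only and MTF2 in both shCT and sh2 cells, each from 1 library, so no difference between lists has a replicate check. The RNA values are the authors' mean over all 6 libraries, with no value for a group or a library, so no effect of PHF19 depletion on a transcript is given.

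Notch signaling passes between neighbouring cells. A ligand such as JAG1 on the surface of a cell binds a NOTCH receptor on the next, proteases release the intracellular domain of the receptor, and this domain enters the nucleus, where it joins the DNA-binding protein RBPJ and turns on genes of the HES and HEY families. HES and HEY proteins are basic helix-loop-helix factors. Most are repressors that hold back differentiation genes, while HES6 counteracts HES1. PHF19 and MTF2 are Polycomb-like proteins, accessory subunits that bring PRC2, the complex that methylates lysine 27 of histone H3, to DNA rich in unmethylated CpGs.

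The letters to which RBPJ is known to bind, GTGGGAA, were searched on both strands in the 250 bases before the transcription start site (TSS) of each gene. They were found in 6 of the 10 promoters, those of HEY1, HEY2, HEYL, HES1, HES4 and HES5. These are 6 of the 7 HES and HEY genes among the 10, with HES6 the exception. The letters were not in the windows of NOTCH1, NOTCH2 or JAG1. Of 21522 promoters of all placed genes, 5.06% held them, and of 46 other Notch pathway genes 0 did. Those 46 include HES2, HES3 and HES7, so the match was not shared by the whole HES family. HES5 had 2 matches, as did 0.167% of all promoters. The stretches around the matches in HES1, HES4, HES5, HEY2 and HEYL are shown because they are the sequence feature most of the effector genes among the 10 share. They were read from GRCh37 (hg19), 5′ to 3′ in the direction of each gene's transcription, with the match in capitals. They lie at chr3:193853841-193853869 on the + strand (HES1), chr1:935537-935565 on the - strand (HES4), chr1:2461766-2461794 and chr1:2461909-2461937 on the - strand (HES5, near and far), chr6:126070554-126070582 on the + strand (HEY2) and chr1:40105476-40105504 on the - strand (HEYL).
HES1: tgaaagttactGTGGGAAagaaagtttgg
HES4: ctggggcgagtGTGGGAAagaatgcggag
HES5 near: ggccgcggagtGTGGGAAcggccgcggcg
HES5 far: gggcgagcgcgTTCCCACagcccggacat
HEY2: ccgcggccgcgTTCCCACgcctcggctgg
HEYL: cgcctagggccTTCCCACggctcggcggc
The matches of HES1, HES4 and the near match of HES5 began 85, 77 and 81 bases before the TSS and read GTGGGAA on the gene's own strand, as did that of HEY1, which began 50 bases before it. The matches of HEYL and HEY2 and the far match of HES5 lay farther out, from 178, 213 and 224 bases before the TSS, and read on the opposite strand. The windows of HEY1 and HES4 overlapped exons of other transcripts of these genes by 90 and 75 bp. The match of HEY1 lay within that stretch and the match of HES4 at its edge. A match is a run of letters and not evidence that RBPJ was bound, and RBPJ itself was not measured on chromatin. HES1 also held 3 matches to the N-box CACNAG (N being any base), which HES proteins bind, where 30.7% of all promoters held at least 1 and no other of the 10 genes did. The E-box CACGTG was in none of the 10 promoters and in 7.58% of all.

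The same 250 bases were rich in CpG, the dinucleotide that Polycomb-like proteins bind. HES5 held 36 CpGs, HEY2, HEYL, HES4 and HES6 35 each, NOTCH1 33, NOTCH2 29, HEY1 26, HES1 18 and JAG1 17. The median was 34 in the 10 genes and 17 in all promoters, and the median G and C content was 74.0% against 62.0%. The promoters of HEY2 and NOTCH1 are shown because they are nearly as dense in CpG as each other, while the first lay under a PHF19 peak and the second did not. They lie at chr6:126070528-126070777 on the + strand and chr9:139440501-139440750 on the - strand of GRCh37, each ends 1 base before the TSS, and CpGs are in capitals.
HEY2: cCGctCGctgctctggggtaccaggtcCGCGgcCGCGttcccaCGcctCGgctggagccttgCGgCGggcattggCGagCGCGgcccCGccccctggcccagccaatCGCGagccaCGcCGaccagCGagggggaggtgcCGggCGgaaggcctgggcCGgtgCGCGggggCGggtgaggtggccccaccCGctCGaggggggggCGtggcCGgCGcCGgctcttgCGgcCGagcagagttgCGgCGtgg
NOTCH1: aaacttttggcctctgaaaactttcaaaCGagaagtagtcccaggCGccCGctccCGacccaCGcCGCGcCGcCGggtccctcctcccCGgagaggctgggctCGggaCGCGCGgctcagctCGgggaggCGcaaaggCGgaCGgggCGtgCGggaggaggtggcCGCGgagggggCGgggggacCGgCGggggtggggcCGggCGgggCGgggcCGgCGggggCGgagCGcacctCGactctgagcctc

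PHF19 peaks in shCT cells were found at 6 of the 10 genes: the ligand JAG1 and the effectors HEY1, HEY2, HEYL, HES4 and HES5. A gene was counted when a peak reached at least 1 bp into the region from 2.5 kb before its TSS to the end of its transcripts, and 10.2% of all placed genes were counted by the same rule. Within 2.5 kb on either side of a TSS the count was again 6, against 7.93% of all genes. MTF2 peaks in shCT cells were found at 7 of the 10, the same 6 genes and NOTCH1, against 13.5% of all genes, and in sh2 cells at 6 of the 10, the 7 without HEY1, against 18.0%. At the promoter alone these counts were again 7 and 6, against 11.2% and 15.7%. All 6 genes with PHF19 also had MTF2 in shCT cells, whereas 64.9% of all genes with PHF19 did. This counts genes and not peaks. The HEY1 peak of rank 1704 and the HEY2 peaks of ranks 928 and 150 in the PHF19 list shared 0 bp with MTF2 peaks of shCT cells. With only peaks at or above the median score of each list, 5 of the 10 genes had PHF19 and 3 had MTF2 in shCT cells. HES1, HES6 and NOTCH2 had no peak in any list, as was the case for 78.3% of all genes. Since the genes were picked with these peaks known, the counts are no evidence that the pathway differs from other genes.

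The 3 lists differed in size, and each score compares peaks only within its own list. There were 5621 PHF19 peaks, 12502 MTF2 peaks in shCT cells and 18287 MTF2 peaks in sh2 cells, with median widths of 1625, 1780 and 2598 bp. The lowest score was 50 in every list, and the median scores were 72.3, 86.6 and 112. The track line of the PHF19 list names sh4 beside the shCT sample, and sh4 also stands in the track line of the MTF2 list from sh2 cells, while the MTF2 lists name IgG. Whether PHF19 peaks were called against depleted cells or against IgG is thus not settled, and the meaning of a PHF19 peak and its rank depends on it. The authors also set a minimum number of tags for PHF19 peaks, which the list does not allow to be applied, so PHF19 peaks of low rank, such as those of JAG1 and HES4, may lie below it. The 8 erythroid markers of K562 had mean normalized counts from 632 (EPOR) to 171752 (HBG2). Of the markers of other cell types, MS4A1 was at 0, and CD14, COL1A2, CD3E and COL1A1 were between 2.04 and 68.2. CD3D, LYZ, EPCAM and KRT19 were between 962 and 3229, and their part in the results was not tested.

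JAG1, a transmembrane ligand of the NOTCH receptors, had peaks that lay on either side of its TSS (chr20:10618332-10654647, - strand). The PHF19 peak was 1040 bp wide, from 1164 to 125 bases before the TSS, and ranked 2466 of 5621. The MTF2 peak in shCT cells was 774 bp wide, from 889 to 116 bases before the TSS, and ranked 10686 of 12502. In sh2 cells the MTF2 peak was 1083 bp wide, began 205 bases before the TSS, ended 877 bases after it and ranked 13877 of 18287. The MTF2 peaks of shCT and sh2 cells shared 90 bp, so JAG1 counted as bound by MTF2 in both lists through peaks that met at their edges only. All 3 peaks were narrow for their lists, in which 18.0%, 5.72% and 5.91% of peaks were narrower.

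NOTCH1, the receptor best known from lymphoid leukemia, had no PHF19 peak within 278 kb of its TSS (chr9:139388885-139440500, - strand). An MTF2 peak of 1235 bp lay in an intron of its canonical transcript, from 347 to 1581 bases after the TSS. With a score of 53.1 it ranked 11480 of 12502, close to the end of the list. In sh2 cells the peak was 1735 bp wide, held the whole of that region, reached 9 bases beyond the TSS on the upstream side and ranked 9938 of 18287 with a score of 102. NOTCH1 was thus the only gene of the 10 with MTF2 and without PHF19, a pattern found in 1608 of the 3155 genes with MTF2 in shCT cells.

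NOTCH2, a second receptor of the same family, was far from every peak (chr1:120454176-120643366, - strand). Its TSS lay 2721 kb from the nearest PHF19 peak and 263 and 185 kb from the nearest MTF2 peaks in shCT and sh2 cells. The human genome holds partial copies of NOTCH2, the NOTCH2NL genes, and reads that match more than 1 place had been discarded by the authors. Its level and its lack of peaks are therefore uncertain.

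HEY2, a Notch-induced repressor known from heart and vessel development, carried the peak of rank 2 of the whole PHF19 list, with a score of 1147. This peak was 7417 bp wide, wider than 99.0% of PHF19 peaks, and ran from 4793 bases before the TSS to 2623 bases after it (chr6:126065985-126073401). Next to it, within the intron that follows, a peak of 1870 bp ranked 928, and at the end of the gene a peak of 3080 bp ranked 150. MTF2 covered the start of HEY2 in both lists, over 6613 bp in shCT cells at rank 120 of 12502 and over 6817 bp in sh2 cells at rank 80 of 18287. The MTF2 peak of shCT cells lay wholly within the PHF19 peak and within that of sh2 cells. At the end of the gene, where PHF19 had its peak of rank 150, MTF2 had no peak in shCT cells and a peak of 2037 bp in sh2 cells, which ranked 7922 of 18287. The large peaks also cover the start of HEY2-AS1, a non-coding RNA, and the lists cannot tell the 2 genes apart.

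HES5, a repressor that keeps neural progenitors from differentiating, had MTF2 peaks of high rank, as HEY2 did, but a PHF19 peak of lower rank than that of HEY2 (chr1:2460184-2461702, - strand). Its PHF19 peak was 2689 bp wide, covered the whole gene and ranked 1501 of 5621. Its MTF2 peak was 10086 bp wide in shCT cells, from 6481 bases before the TSS to 3604 bases after it, and ranked 58 of 12502. In sh2 cells it was 9986 bp wide and ranked 151 of 18287, and the 2 MTF2 peaks shared 9972 bp. HES5 therefore had the best MTF2 rank of the 10 genes in shCT cells and HEY2 the best in sh2 cells, while HEY2 had the best PHF19 rank. A non-coding RNA, ENSG00000272449, starts under the same peaks.

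HEYL, a HEY family member known from vascular smooth muscle, had separate peaks at its TSS, farther downstream and, for MTF2 only, at its 3′ end (chr1:40089107-40105315, - strand). PHF19 covered its TSS with 2048 bp at rank 1347 and a site from 5695 bases downstream with 1566 bp at rank 3728. MTF2 covered both places in both lists, and also the 3′ end of the gene, with 4611 bp in shCT cells and 4144 bp in sh2 cells, where PHF19 had no peak. At the TSS, the MTF2 peak was 2061 bp wide at rank 4026 in shCT cells and 3498 bp wide at rank 7849 in sh2 cells. The site downstream, under which the non-coding RNA ENSG00000225903 starts, ranked 3900 and 4167. Both sites stood far lower in the MTF2 lists than the peaks over HES5 and HEY2.

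HES4, a HES family member that is present in humans and absent in mice, had 1 peak over its start in each list (chr1:934342-935552, - strand). The PHF19 peak was 1632 bp wide at rank 3222, and it lay wholly within both MTF2 peaks. The MTF2 peak was 1733 bp wide at rank 7268 of 12502 in shCT cells and 2202 bp wide at rank 4786 of 18287 in sh2 cells. These ranks are places within lists of different length and are not compared. These peaks were the densest in CpG among the 10 genes, with 12.8 CpGs per 100 bp under the PHF19 peak, more than 99.4% of PHF19 peaks.

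HEY1, a Notch target in endothelium and bone, was the only gene of the 10 with an MTF2 peak in shCT cells and none in sh2 cells (chr8:80674606-80680092, - strand). Its PHF19 peaks lay inside the gene and not over the TSS, 1088 bp wide from 336 bases after the TSS at rank 2694 and 1188 bp wide from 1771 bases after it at rank 1704. The MTF2 peak of 1429 bp held the whole of the nearer PHF19 peak and had a score of 51.1, at rank 12090 of 12502, just above the lowest score of 50. In sh2 cells the nearest MTF2 peak was 154 kb away. Of all genes with MTF2 in shCT cells, 6.75% (213 of 3155) had no peak in sh2 cells. Among the 384 genes whose best MTF2 score in shCT cells lay from 50 to under 60, 28.4% had none in sh2 cells, against 0.882% of the 1134 genes at 200 or more. NOTCH1 and JAG1, with MTF2 scores of 53.1 and 56.0, were in the same lowest band and had a peak in sh2 cells.

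HES1, the best studied Notch target and a brake on differentiation in many tissues, and HES6, a relative that counteracts HES1, had no peak nearby. The nearest PHF19 peaks lay 200 kb from the TSS of HES1 (chr3:193853937-193856521, + strand) and 368 kb from that of HES6 (chr2:239146908-239149303, - strand). The nearest MTF2 peaks lay 223 kb from HES1 in both lists and 62.6 and 62.8 kb from HES6. HES6 had as many CpGs before its TSS as HEY2, HEYL and HES4, which all had peaks there.

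**Figure D1:**
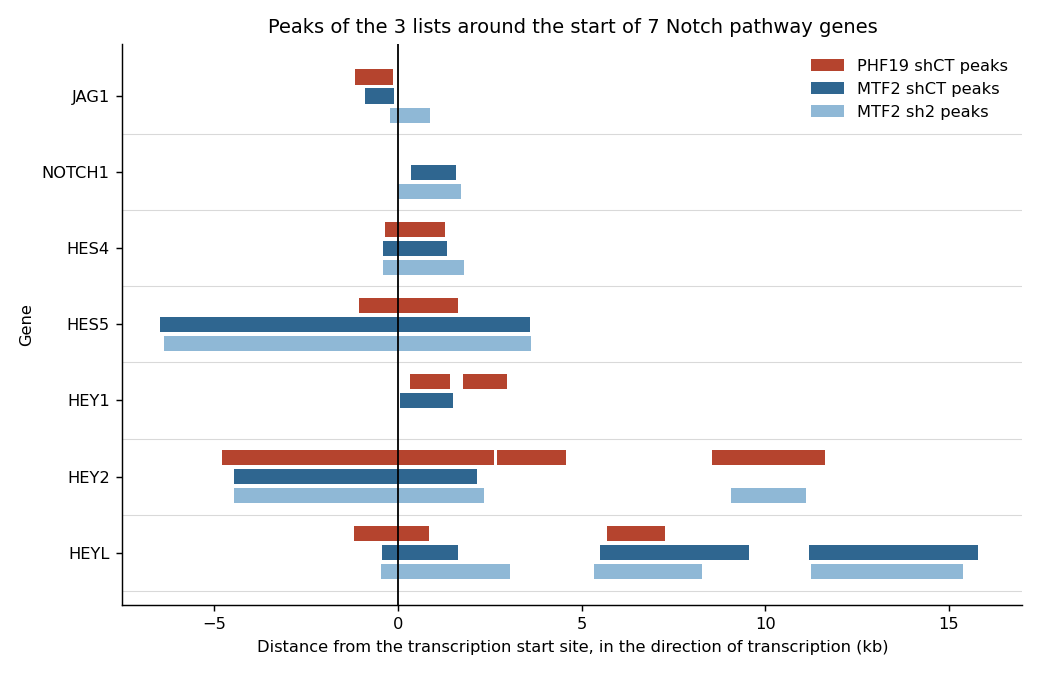
Peaks of PHF19 in shCT cells (red), MTF2 in shCT cells (dark blue) and MTF2 in sh2 cells (light blue) at the 7 genes with a peak, with distance from the TSS in kb on the x axis and the gene on the y axis. The widest bars are those of HES5 (10086 bp) and of HEY2 at its start (7417 bp), NOTCH1 has no red bar and HEY1 no light blue one.

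MTF2 peaks covered nearly as many bases of these genes in shCT as in sh2 cells. Over the gene regions, 26335 bp were under MTF2 peaks in shCT cells and 27807 bp in sh2 cells, a ratio of 1.06. Over all 4427 genes with MTF2 in either list, the ratio was 2.15. More bases were covered in sh2 cells at 3 of the 7 genes, HEY2, NOTCH1 and JAG1, where 89.4% of all such genes had more. HEY2 had 6613 bp in shCT and 8854 bp in sh2 cells, where a peak lay at its end, NOTCH1 1235 and 1735 bp, and JAG1 774 and 1083 bp. The region of HES5, 4019 bp long, was wholly under the peak in both lists, so its value could not rise, as was the case for 0.587% of all genes with MTF2 (26 of 4427). The region of HES4 had 1534 and 1532 bp, cut off at the end of the gene, beyond which both peaks reached. HEYL had 10731 bp in shCT cells and 10584 bp in sh2 cells, and HEY1 had 1429 bp and none. At promoters alone, 5 of the 7 genes had more in sh2 cells and the ratio was 1.05, against 1.89 over all genes. Of the 6 genes with MTF2 in sh2 cells, 0 had it in sh2 cells alone. Over all genes with MTF2 in sh2 cells, 30.2% (1272 of 4214) had no peak in shCT cells, and the ratio over all genes includes these. Since the 10 genes were chosen with the peaks known, the ratios are no evidence that they differ from other genes. With 1 library for each list, the effect of the shRNA and the difference between libraries cannot be told apart. Cut to the 12502 highest-scoring peaks, the sh2 list gave a ratio of 0.857 for the 10 genes and 1.81 for all genes.

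**Figure D2:**
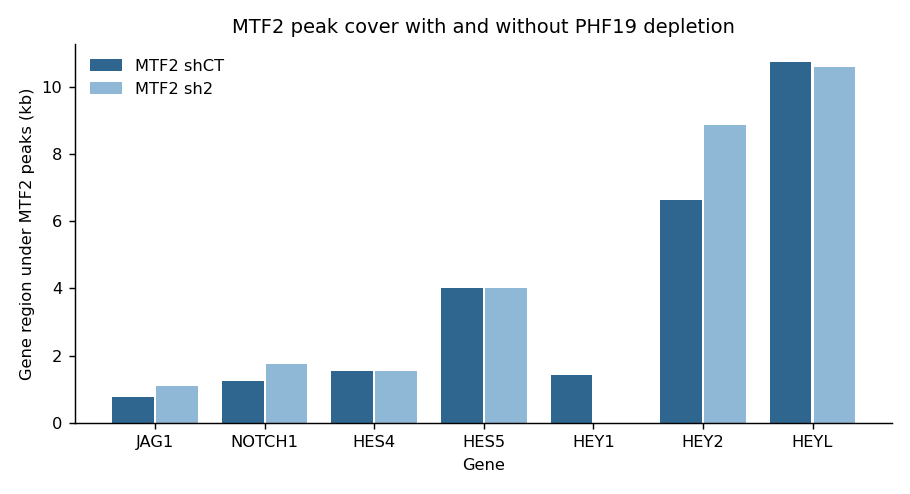
Gene region under MTF2 peaks in kb (y axis) for each of the 7 genes with MTF2 (x axis), in shCT cells (dark blue) and sh2 cells (light blue), 1 library each. HES5 stands at 4019 bp in both, the full length of its region, HEY1 has 1429 bp in shCT cells and none in sh2 cells, and HEY2 differs most, with 6613 and 8854 bp.

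Transcript levels spread widely among the 10 genes. Given as the mean normalized count per kb of exons, HES6 was highest at 755, followed by HES1 at 173, HES4 at 79.0, HEY1 at 67.1, NOTCH1 at 41.0, JAG1 at 10.99, HEYL at 6.65, NOTCH2 at 6.38, HEY2 at 0.662 and HES5 at 0.0964. HES6 exceeded 91.6% of all placed genes and HES1 73.1%, while HES5 exceeded 24.2%. Before division by length, the mean normalized count was 1476 for HES6, 514 for NOTCH1, 368 for HEY1, 356 for HES1, 107 for NOTCH2, 102 for JAG1, 88.4 for HES4, 27.1 for HEYL, 1.78 for HEY2 and 0.128 for HES5. HEY2 and HES5 were the lowest on either scale, and 8 of the 10 genes had a mean of at least 10. The order of neighbours cannot be checked against replicates, since no value per library was used. The authors counted reads on RefSeq exons, while lengths were taken from GENCODE, so values per kb are approximate. For HEY1 all exons together made 5.487 kb, the full span of the gene, against 3.878 kb for its longest transcript. Divided by the longest transcript in place of all exons, HEY1 passed HES4 and NOTCH2 passed HEYL. In RNA from many cells, expression in a few cells and little RNA in each cannot be told apart.

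The genes without any peak included both HES6 and HES1, the 2 highest of the 10, and also NOTCH2, near the bottom. The peaks were those of shCT cells, but each level was a mean over shCT, sh1 and sh2 libraries, so peak and level do not describe the same cells. The 6 genes with a PHF19 promoter peak ran from 0.0964 (HES5) to 79.0 (HES4) per kb and the 4 without from 6.38 (NOTCH2) to 755 (HES6), so the groups overlapped. Over all genes, the median level was 4.60 per kb for 1852 genes with a PHF19 promoter peak and 10.997 per kb for 21514 without. Before division by length the medians were 24.4 and 34.7, and 40.2% and 42.8% of these genes had a mean under 10, so the gap was smaller on those measures. HEY2 and HES5, with the strongest PHF19 peak and the strongest MTF2 peak of shCT cells among the 10 genes, had the lowest levels. A high PHF19 rank did not go with a low level in every gene. Of 82 genes with a best promoter rank up to 100, 33 had a mean under 10, where 42.6% of all genes did. Their median mean normalized count was 16.7, against 33.1 for all genes. The 5 genes outside the pathway nearest to HEY2 in PHF19 rank were the connexin gene GJC1 (rank 1), the stress-response factor ATF3 (rank 3), RCAN3 and its antisense RNA RCAN3AS (rank 7, under the same peak) and PODXL (rank 8). Their levels per kb were 15.2 for GJC1, 96.3 for ATF3, 4.88 for RCAN3, 2.47 for RCAN3AS and 19.04 for PODXL, all above that of HEY2. All 5 had MTF2 peaks in both lists.

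**Figure D3:**
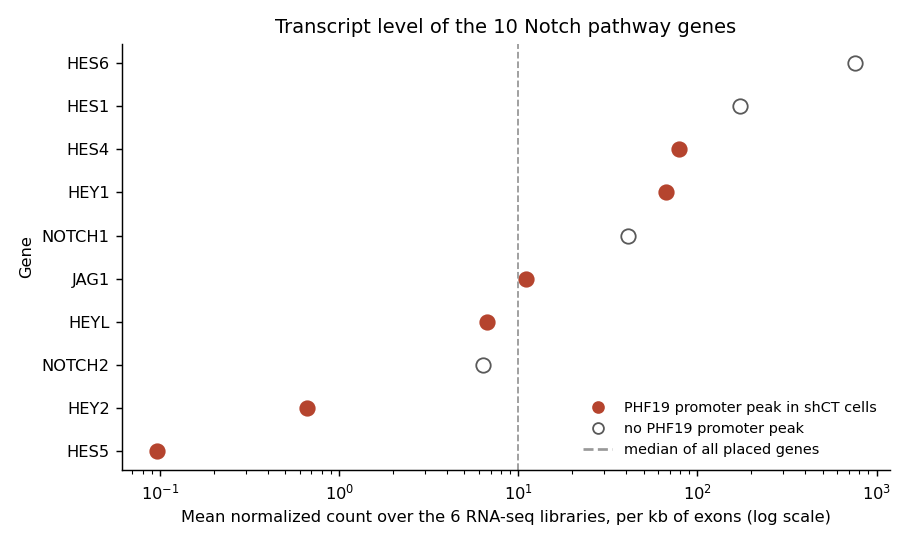
Transcript level of each gene (y axis) as the mean normalized count over the 6 RNA-seq libraries (2 each of shCT, sh1 and sh2 cells) per kb of exons (x axis, log scale), filled red where a PHF19 peak lay at the promoter in shCT cells and open where none did, with the median of all placed genes (9.94) as a dashed line. HES6 (755) and HES1 (173), both open, are highest, and HEY2 (0.662) and HES5 (0.0964), both filled, are lowest.

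Across all genes, PHF19 promoter peaks were more frequent in bins with more CpGs, and the 10 genes lay mostly at the CpG-rich end. A PHF19 promoter peak was found at 4.11% of promoters with 0 to 4 CpGs in the 250 bases before the TSS, 6.30% of those with 5 to 9, 7.45% of those with 10 to 19, 9.79% of those with 20 to 29 and 15.3% of those with 30 or more. In the last bin were HEY2, HEYL, HES4 and HES5, with a peak, and HES6 and NOTCH1, without. JAG1, with 17 CpGs, had a peak, and HES1, with 18, had none. CpG number in these 250 bases therefore did not separate the genes with and without PHF19 in this group. The window held only part of the JAG1 peak, which had 9.23 CpGs per 100 bp, more than 96.1% of PHF19 peaks. Genes in a bin may share base composition and neighbours, which was not examined, so the shares are a description.

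**Figure D4:**
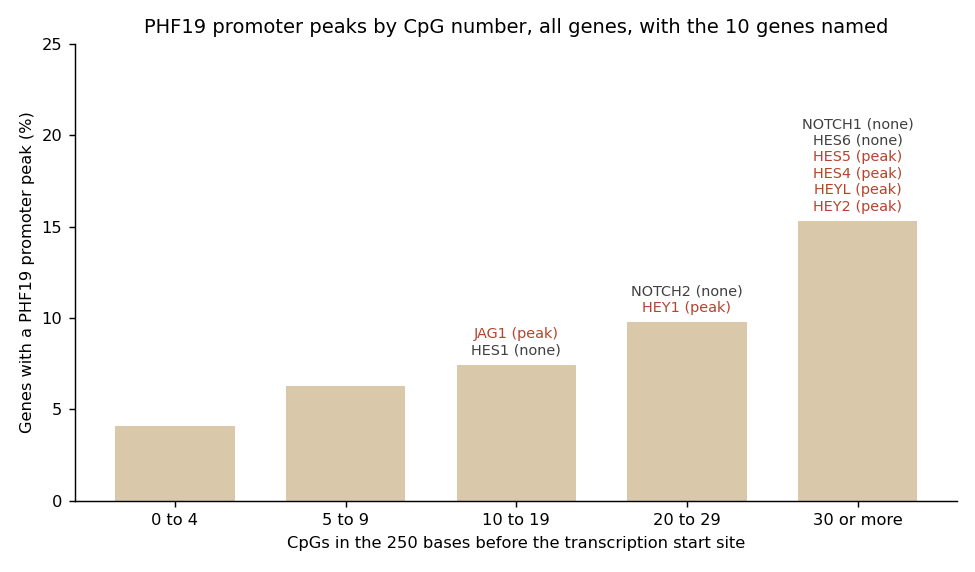
Share of genes with a PHF19 promoter peak in shCT cells (y axis, percent) by the number of CpGs in the 250 bases before the TSS (x axis), over all 21522 promoters, with the 10 genes named above their bin. The bars climb from 4.11% to 15.3%, and the last holds 4 of the genes with a peak and 2 without.

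Of 46 other genes of the pathway (further ligands and receptors, proteases, nuclear cofactors, glycosyltransferases, regulators, other HES-related factors and corepressors), 10 (21.7%) had a PHF19 peak in the gene region, 11 (23.9%) an MTF2 peak in shCT cells and 15 (32.6%) in sh2 cells, against 10.2%, 13.5% and 18.0% of all placed genes. Of the 11, 0 were without MTF2 in sh2 cells, against 6.75% of all genes. Of the 15, 4 (26.7%) had MTF2 in sh2 cells alone, near the 30.2% of all genes, namely the ligand gene DLL4, the cofactor gene MAML3 and the glycosyltransferase genes LFNG and MFNG. The highest PHF19 score at a promoter was at DLL1, a ligand gene with a mean normalized count of 0.936, where a peak of 8141 bp ranked 36. HES2, BHLHE41, HES7 and HES3, genes of HES-related factors, followed with best promoter ranks of 168, 402, 431 and 698, so that 4 of the 5 highest were relatives of the effectors. The MTF2 peak at the start of HES7 ranked 6378 of 12502 in shCT cells and 217 of 18287 in sh2 cells, and that of DLL1 5154 and 584, each within its own list. At BHLHE41 the ranks were 10 and 12 and at HES3 47 and 43, above those of HES5. HES3 was listed at 0 in the RNA-seq, and HES7, BHLHE41 and HES2 had means of 7.40, 7.46 and 29.7. The other 4 genes with PHF19 at the promoter, NCSTN and APH1A of the gamma-secretase that cleaves the receptors, MAML3 and the HES-related BHLHE40, had no MTF2 peak in shCT cells. Their PHF19 peaks ranked 2833, 5305, 3918 and 3538 of 5621 and may lie below the authors' minimum of tags. In the gene region, 6 of the 10 genes with PHF19 (60%) had MTF2 in shCT cells, near the 64.9% of all genes with PHF19.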

How the data were processed

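The 10 genes, the lists of other genes and the searched motifs were chosen with earlier results of these data known. RNA-seq reads had been mapped to hg19 with TopHat and kept where they matched uniquely, and the authors ran DESeq2 on RefSeq exons. The deposited expression table holds, besides the mean of normalized counts over all 6 libraries (a score with no depth, SD or n), 5 columns of the authors' comparison of PHF19-depleted with control cells (fold change, its error, statistic and p-values). These were not used. For the ChIP-seq, the authors aligned reads to human and fly (dm3) sequence with Bowtie, kept unique matches and called peaks for each sample with MACS at a shift size of 100 bp. Tool and build names come from the submitters' processing notes and the methods, and their versions are not stated there. Depth per library is unknown from these files. Each deposited peak has a start, an end and a score on a scale that is not stated, and the lists give no tag numbers, so the authors' minimum of tags for PHF19 was not applied. With that minimum, the paper reports fewer PHF19 peaks and target genes than are counted here. The remaining 3 ChIP-seq libraries were not analysed here. There were 0 columns of other samples, and 1 of the cell type markers is not reported here.

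Genes were placed with GENCODE release 44 on GRCh37 (85.4% of the table). A gene region ran from 2.5 kb before the TSS to the transcript end over all transcripts, a promoter was 2.5 kb on either side of a TSS, and 1 bp of overlap counted. Distances and sequences use the Ensembl canonical TSS, and ranks run from the highest score of a list. Levels were divided by the union of all GENCODE exons, while the counts rest on RefSeq exons. All 10 genes are named. Of the other pathway genes, the text describes the 5 with the highest PHF19 score at a promoter, and for likeness the 5 genes outside the pathway nearest to HEY2 in rank. DLL4, MAML3, LFNG, MFNG, NCSTN, APH1A and BHLHE40 were named after their values were seen. Overlaps were checked on simulated peaks (200 of 200 genes found). Python 3.11.15, numpy 2.4.6, pandas 2.3.3 and matplotlib 3.10.9 were used.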

Additional observations from a re-analysis of the deposited data

How the results depend on the processing

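Of 26 alternatives to the main choices, 21 left a count within 1.5 times its main value, or the ratio on the same side of 1. These include 5 genes in place of 6 with PHF19 peaks at or above the median score, 4 or 5 in place of 6 with MTF2 in sh2 cells (median score, or as many peaks as in shCT cells), and 9 or 6 in place of 8 with a mean count of at least 1 or 100. With only the 1000 highest-scoring PHF19 peaks, 1 of the 10 genes (HEY2) had PHF19. With MTF2 peaks of shCT cells at or above their median score, or as many as the PHF19 list holds, 3 genes had MTF2 (HEY2, HEYL and HES5 in both cases), so HES4, HEY1, NOTCH1 and JAG1 were counted through low-scoring peaks. With equal numbers of peaks, the ratio of bases under MTF2 peaks in sh2 over shCT cells was 0.857 in place of 1.06, so its direction was not settled. Ordered by count per kb of the longest transcript, 6 of the 10 genes stayed at the same place. The count of promoters with an RBPJ match was 6 with 500 bases before the TSS, where 10.5% of all promoters matched, and 5 of the 9 genes found in the RefSeq promoters of GRCh38, where 6.28% matched. Both of these windows were chosen after seeing the data. No paired analysis was possible because each ChIP-seq list is 1 library and the RNA-seq table gives 1 mean. Score and width depend on sequencing depth, which is unknown here.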
